A study of Mus musculus with 12 samples.

Results

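The sortilin family of sorting receptors has 5 members in the mouse, Sort1, Sorl1, Sorcs1, Sorcs2 and Sorcs3, and all 5 were found by symbol among the 54833 genes of the table and were among the 21495 genes with enough reads to be tested. The family was chosen by symbol, but with the low Sorcs3 level in young mice after intracerebral hemorrhage (ICH) already known, so the differences of the members between the young groups are given here as a description without a P value. Each sample was a pool of perihematomal caudate putamen from 2 to 3 male wild-type C57BL/6 mice, taken 24 h after surgery, with 3 pools in each of 4 groups. The age was 8 to 10 weeks in the young groups and 20 to 22 months in the aged groups. ICH was made by injecting collagenase, which digests the collagen around small vessels and lets them bleed, at 0.075 U in 0.4 µl, and sham mice received saline. Pooling hides the spread between single animals, and P values here measure the spread between pools.

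Members of this family carry a Vps10p domain, a large luminal domain that binds ligands, and travel between the trans-Golgi network, endosomes and the cell surface. Sortilin, the product of Sort1, binds the precursors of neurotrophins, neurotensin and progranulin, and SorLA, the product of Sorl1, returns amyloid precursor protein from endosomes with the help of the retromer. The 3 SorCS receptors are found mainly in neurons, where SorCS1 sorts neurexin and glutamate receptors, SorCS2 acts with the p75 neurotrophin receptor, and SorCS3 sits at the postsynaptic density and binds the adaptor Pick1.

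All 5 genes are protein coding, and their positions are given on GRCm38. Sort1 (ENSMUSG00000068747) lies on the plus strand at chr3:108284082-108361511 and has up to 21 exons in one transcript. Sorl1 (ENSMUSG00000049313) lies on the minus strand at chr9:41964720-42124297 with up to 48 exons. Sorcs2 (ENSMUSG00000029093) lies on the minus strand at chr5:36017180-36398139 with up to 27 exons. The other SorCS genes share chromosome 19, with Sorcs3 (ENSMUSG00000063434) on the plus strand at chr19:48206025-48805505 and Sorcs1 (ENSMUSG00000043531) on the minus strand at chr19:50143299-50678646. These are long genes. Sort1 spans 77.4 kb, more than 84.5% of 21169 tested genes with an annotated span, and Sorcs3, the longest, spans 599.5 kb, more than 99.3% of them. The annotation places 9 other genes within the spans of the members, 8 of them on the opposite strand. These 9 held at most 31 reads in any sample, against 1121 or more reads for every member.

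RefSeq promoters of the same build were at hand for 3 members. The 250 bases before the start of each are shown. None were at hand for Sort1, which was also lower after ICH, or for Sorcs2. A link between promoter composition and the receptor levels was not tested. Capitals mark GGGCGG, known as the GC box, and CACGTG, known as the E-box, on either strand.
Sorcs3, chr19:48205775-48206024, plus strand: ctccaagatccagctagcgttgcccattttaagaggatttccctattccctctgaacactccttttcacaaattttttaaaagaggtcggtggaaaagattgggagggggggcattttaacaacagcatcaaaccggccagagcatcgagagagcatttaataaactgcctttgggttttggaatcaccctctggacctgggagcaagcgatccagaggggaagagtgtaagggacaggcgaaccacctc
Sorl1, chr9:42124298-42124547, minus strand: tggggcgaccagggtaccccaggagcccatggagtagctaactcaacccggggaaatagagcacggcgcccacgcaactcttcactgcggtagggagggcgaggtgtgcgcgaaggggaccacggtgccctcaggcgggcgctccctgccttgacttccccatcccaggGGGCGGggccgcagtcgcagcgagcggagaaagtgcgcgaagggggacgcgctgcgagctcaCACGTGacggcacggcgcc
Sorcs1, chr19:50678647-50678896, minus strand: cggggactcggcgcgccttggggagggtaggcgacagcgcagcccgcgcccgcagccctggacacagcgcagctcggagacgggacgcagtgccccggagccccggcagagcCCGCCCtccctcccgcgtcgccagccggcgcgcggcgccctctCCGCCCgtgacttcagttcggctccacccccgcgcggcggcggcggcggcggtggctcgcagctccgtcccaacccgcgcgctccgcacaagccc

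The Sorcs3 window held 6 CpG dinucleotides at a GC content of 48.4%, and 49.6% of 32851 promoters held fewer. The Sorl1 window held 26 CpG (69.6% GC), above 90.4% of promoters, and that of Sorcs1 held 41 (79.6% GC), above 98.9%. The window of Sorcs3 was thus near the middle of all promoters in CpG, and those of Sorl1 and Sorcs1 were CpG rich. GGGCGG occurred in the Sorcs1 window 2 times on the reverse strand and in that of Sorl1 1 time, and it occurs in 32.7% of all promoters. CACGTG was in the Sorl1 window only among the 3, against 6.02% of all promoters. CCAAT, the CCAAT box, was found 1 time in the Sorcs3 window on the reverse strand, against 33.8% of promoters. TGACGTCA, the cAMP response element, and TATAAA, the TATA box, which occur in 1.55% and 12.4% of promoters, were not found in these 3 windows. None of these motifs overlapped another in the 3 windows. No window was measured for factor binding or methylation in this series.

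The 12 libraries held 28410896 to 37785160 reads on genes, which gave each member between 1121 (Sorcs3) and 20654 (Sort1) reads in a sample. The labelled tissue was checked by its markers. All 12 striatal projection neuron genes, among them Ppp1r1b, Drd1 and Drd2, were measured, and none of these 3 was at 0 in any library. Their summed level in CPM, the counts scaled to a common library size, varied widely between pools, from 1849 to 3158 CPM in young sham and from 357 to 2027 CPM in aged ICH. Genes of cortical excitatory neurons were present too, with Slc17a7 at 513 to 1000.2 CPM, beside 98.7 to 587 CPM for Ppp1r1b. CPM are not divided by transcript length, so neither these genes nor the sums below are read as amounts of a cell type. In 3 of the 12 libraries the summed cortical genes exceeded the summed striatal genes, with 1251 against 357 CPM in aged ICH replicate 1, 1328 against 807 CPM in aged ICH replicate 3 and 1615 against 540 CPM in young ICH replicate 2. All 3 were ICH libraries, and their striatal sums lay below the lowest sham sum of 1595 CPM. Their cortical sums were near those of sham, which were 1242 to 1599 CPM in young and 1063 to 1310 CPM in aged sham. More cortex in a sample and less RNA of striatal neurons cannot be told apart here. The summed cortical genes were at 857 CPM or more in every library. No reference level for pure caudate putamen was used, so the purity of the samples was not tested.

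Per transcript length, sortilin was the leading receptor. Levels between genes were compared as the deposited FPKM, which divide reads by transcript length and by the mapped fragments of the sample. In young sham mice Sort1 reached 75.2 ± 4.52 FPKM (mean ± SD, n = 3 in each group) and Sorl1 36.7 ± 5.97 FPKM. The 3 SorCS genes were far lower, at 11.99 ± 0.842 for Sorcs3, 8.71 ± 1.59 for Sorcs2 and 7.88 ± 0.728 FPKM for Sorcs1. Sort1 thus took 53.5% of the summed FPKM of the family, Sorl1 26.1% and Sorcs3 8.54%.

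In aged sham mice the order was the same, with 72.2 ± 3.51 FPKM for Sort1, 28.7 ± 2.58 for Sorl1, 9.93 ± 0.192 for Sorcs3, 8.49 ± 0.417 for Sorcs2 and 7.85 ± 0.328 for Sorcs1. In both sham groups the samples of Sorcs2 and Sorcs1 overlapped, and all other neighbours in the order were apart.

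After ICH Sorcs3 no longer ranked above the other SorCS genes. In young ICH mice the levels were 59.7 ± 7.94 FPKM for Sort1, 22.5 ± 3.58 for Sorl1, 8.54 ± 1.51 for Sorcs2, 6.92 ± 0.395 for Sorcs3 and 6.33 ± 0.130 for Sorcs1. In aged ICH mice they were 57.5 ± 5.04 for Sort1, 21.4 ± 1.28 for Sorl1, 8.38 ± 0.556 for Sorcs2, 7.60 ± 0.399 for Sorcs3 and 6.90 ± 0.444 FPKM for Sorcs1. The samples of Sorcs2 and Sorcs3 overlapped in both ICH groups, and those of Sorcs3 and Sorcs1 overlapped in aged ICH but not in young ICH. The summed FPKM of the family was 140.5 ± 8.36 in young sham, 104.0 ± 10.5 in young ICH, 127.2 ± 4.65 in aged sham and 101.8 ± 4.97 in aged ICH mice.

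The place of Sorcs3 depends on the length used. The deposited FPKM imply a transcript length of 5634 bases for Sorcs3, while the exons of the annotation cover 7130 bases, and for the other 4 members both lengths were equal. With counts scaled to the total counts of each library, without TMM factors, per kb of annotated exons, Sorcs3 still ranked above Sorcs2 and Sorcs1 in young sham at 9.48, but was the lowest of the 5 in young ICH (5.47), aged ICH (6.001) and, level with Sorcs1, in aged sham (7.85 for both). Comparisons of one gene between groups do not depend on this length.

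**Figure D1:**
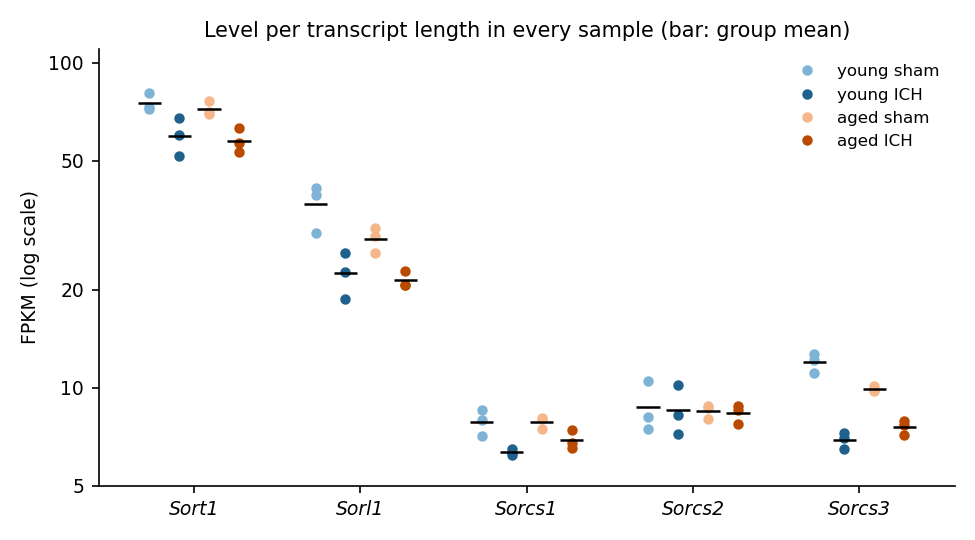
Level of each sortilin-family member in FPKM, on a log axis, with 1 point per sample and a bar at the mean of the 3 samples of a group. Sort1 and Sorl1 lie above the 3 SorCS genes in all 4 groups, and Sorcs3 lies above Sorcs2 and Sorcs1 in the sham groups only.

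The comparison of aged ICH with aged sham mice asks how the family responded in samples other than those of the known low Sorcs3 level. Earlier results of these data were known when members and tests were chosen, and the spread was estimated from all 12 samples in one fit. In aged mice 4 of the 5 receptors fell after ICH and none rose, while Sorcs2 did not pass the test. The same 4 were lower in every ICH sample than in every sham sample. A gene was called at an adjusted P under 0.05 in edgeR's quasi-likelihood test, with Benjamini-Hochberg adjustment over all genes tested, and 6.14% of these genes were called lower and 6.83% higher. Groups did not overlap, with ICH below sham, for 17.3% of all genes.

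Sorcs3 measured 56.4, 56.6 and 57.2 CPM in the aged sham samples and 41.9, 38.8 and 43.3 CPM in the aged ICH samples. The sham values were almost the same and each ICH value was well below them. Its log2 fold change (log2FC) was −0.46 ± 0.07 (SE), a fall by 27.2% (adjusted P = 0.00468).

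Sorl1 gave 339, 299 and 351 CPM in aged sham and 251, 226 and 226 CPM in aged ICH samples. The log2FC was −0.49 ± 0.14 (adjusted P = 0.036), about that of Sorcs3 in size but with a wider spread between the sham pools. The highest ICH value lay below the lowest sham value.

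Sort1 measured 591, 544 and 529 CPM in aged sham and 387, 412 and 461 CPM in aged ICH samples. Its log2FC was −0.40 ± 0.11 (adjusted P = 0.0299), and the groups were apart.

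Sorcs1 gave 69.6, 64.2 and 67.7 CPM in aged sham and 55.3, 53.0 and 60.5 CPM in aged ICH samples, the smallest of the called differences. Its log2FC was −0.26 ± 0.08 (adjusted P = 0.046), just under the threshold.

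Sorcs2 measured 78.1, 78.6 and 70.6 CPM in aged sham and 66.0, 74.7 and 73.1 CPM in aged ICH samples. The groups overlapped and the log2FC was −0.09 ± 0.13 (adjusted P = 0.705).

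The median log2FC of the 5 members was −0.40, against 0.00 over all genes tested. The differences were modest, and 0 of the 5 reached the study's criterion of a fold change (FC) below 0.67 with an unadjusted P under 0.05, which 2.71% of all genes met. The share of calls was also higher among genes like the members. Of tested genes spanning at least 100 kb, as 4 of the members do, 18.7% were called lower, and of genes with a mean level at least that of Sorcs3, the lowest of the 5 in mean CPM, 17.9% were.

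Only Sorcs3 kept its call whichever of the 12 samples was left out and under each of the 10 other settings tried. The count of 4 dropped to 1 without aged sham replicate 1, aged sham replicate 2, aged ICH replicate 1 or aged ICH replicate 2, and to 2 without aged sham replicate 3 or aged ICH replicate 3. All 5 log2FC stayed negative in each of these fits. Without the 3 libraries richer in cortical than in striatal markers, which leaves 1 aged ICH sample that is assumed to vary like the other groups, edgeR called 0 members and 0 of all genes tested, and 4 members were lower at an unadjusted P under 0.05. The log2FC were then −0.53 ± 0.10 for Sorcs3 (adjusted P = 0.163), −0.53 ± 0.19 for Sorl1 (adjusted P = 0.303), −0.41 ± 0.12 for Sort1 (adjusted P = 0.249), −0.32 ± 0.11 for Sorcs1 (adjusted P = 0.275) and −0.0044 for Sorcs2 (adjusted P = 0.996).

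**Figure D2:**
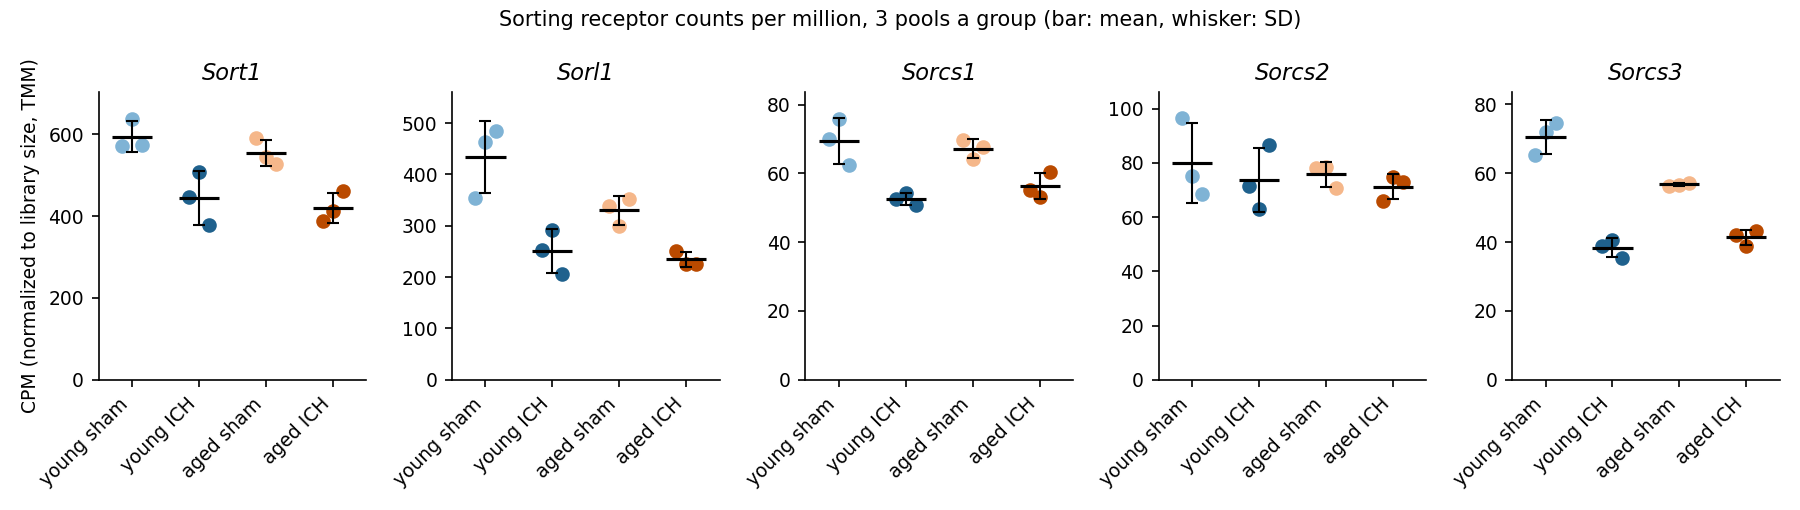
CPM of each member in every sample, normalized to library size with TMM factors, with a bar at the mean and a whisker for the SD of the 3 pools of a group. ICH samples lie below the sham samples of the same age in 4 of the 5 panels, and the groups overlap for Sorcs2.

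In young mice the same 4 members were lower in every ICH sample than in every sham sample, which held for 16.5% of all genes. This contrast chose the family and nothing is read from the count. Sorcs3 measured 65.2, 71.9 and 74.5 CPM in young sham and 38.9, 40.7 and 35.3 CPM in young ICH samples. Its ICH level was 0.543 of the sham level (log2FC −0.88 ± 0.07), the lowest ratio of the 5. This low level was known when the family was chosen.

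Sorl1 gave 354, 464 and 484 CPM in young sham and 253, 292 and 206 CPM in young ICH samples, a log2FC of −0.79 ± 0.14. The first sham pool was lower than the other 2 but still above all ICH pools. Sort1 measured 571, 639 and 574 CPM in young sham and 446, 508 and 378 CPM in young ICH samples, a log2FC of −0.42 ± 0.11.

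Sorcs1 gave 70.1, 75.8 and 62.4 CPM in young sham and 52.5, 54.3 and 50.7 CPM in young ICH samples, a log2FC of −0.40 ± 0.08. For Sorcs2 the values were 96.6, 75.1 and 68.4 CPM in young sham and 71.4, 63.0 and 86.5 CPM in young ICH samples (log2FC −0.12 ± 0.13). Its 2 groups overlapped and their spread was the widest of the SorCS genes. The median log2FC of the family in young mice was −0.42, against 0.02 over all genes, a description only because this contrast chose the family. In the fit without the 3 libraries richer in cortical markers the young log2FC were −0.92 ± 0.08 for Sorcs3, −0.92 ± 0.15 for Sorl1, −0.52 ± 0.10 for Sort1, −0.42 ± 0.09 for Sorcs1 and −0.01 ± 0.14 for Sorcs2.

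**Figure D3:**
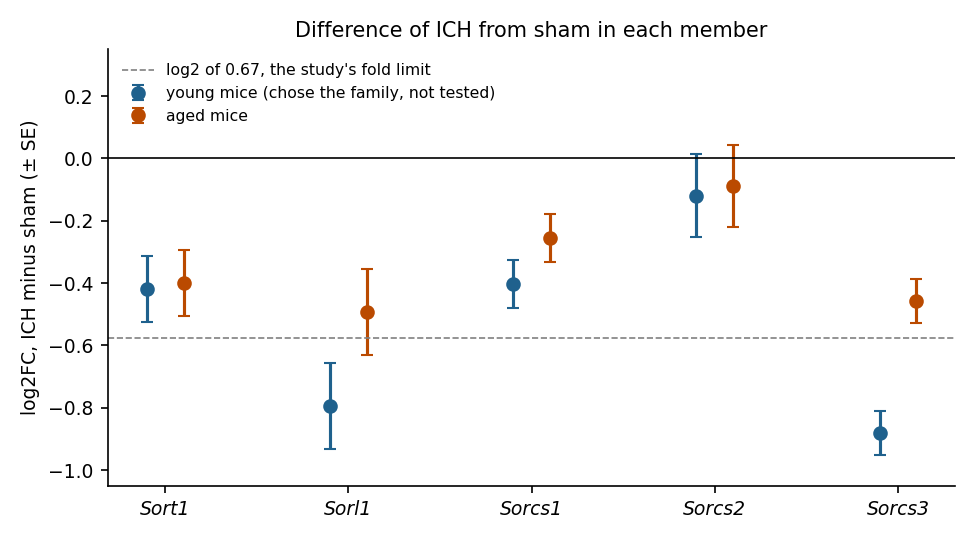
Difference between ICH and sham of each member as log2FC with its SE, in young and in aged mice, with a dashed line at the study's fold limit of 0.67. Sorl1 and Sorcs3 lie past this limit in young mice only, and the points of Sort1 and Sorcs2 are close to each other in the 2 ages.

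As a description, the largest log2FC between the ages were those of Sorcs3 and Sorl1 in the sham groups. Aged sham samples were lower than young sham samples for Sorcs3 (log2FC −0.31 ± 0.07) and Sorl1 (−0.40 ± 0.14), with no overlap between the groups. For Sort1 (−0.10 ± 0.11), Sorcs2 (−0.08 ± 0.13) and Sorcs1 (−0.05 ± 0.08) the aged and young sham samples overlapped. The share of all genes without overlap between the sham ages was not computed, so nothing is read from these counts.

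After ICH the aged and young samples overlapped for all 5 members, and the share over all genes was not computed here either. The log2FC of aged against young ICH mice was 0.11 ± 0.07 for Sorcs3, −0.10 ± 0.14 for Sorl1, −0.08 ± 0.11 for Sort1, 0.10 ± 0.08 for Sorcs1 and −0.05 ± 0.13 for Sorcs2. The response to ICH, taken as aged minus young on the log2 scale, differed by 0.42 ± 0.10 for Sorcs3, 0.30 ± 0.19 for Sorl1 and 0.15 ± 0.11 for Sorcs1. It differed by 0.03 ± 0.19 for Sorcs2 and 0.02 ± 0.15 for Sort1. These age differences use the young samples that entered the choice of the family and were not tested. The aged sham pools were the sham reference of one response and the young sham pools of the other.

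Markers of cell types are given beside the receptors. The summed level of 10 neuron genes, among them Rbfox3, Map2 and Snap25, was 7459 to 8154 CPM in aged sham and 6122 to 6756 CPM in aged ICH samples, and 7638 to 8913 CPM in young sham against 5595 to 7143 CPM in young ICH samples. The sums did not overlap in either age. In aged mice the interneuron, astrocyte, oligodendrocyte and oligodendrocyte precursor sums were also lower after ICH without overlap, so this was not particular to neurons. The astrocyte sum, for example, was 5239 to 5724 CPM in aged sham and 4479 to 5049 CPM in aged ICH samples. The aged sums of the cortical, microglia, lymphocyte and endothelial lists overlapped, and that of neutrophils and monocytes was higher. The log2FC was negative for all 10 genes in aged mice and for 9 in young mice, with a median of −0.20 in both ages. Called lower were 1 of the 10 in aged mice (Syt1) and 3 in young mice, against 6.14% and 9.13% of all genes. Rbfox3, the least changed of the list in aged mice, measured −0.04 on the log2 scale in both ages. In such bulk tissue, fewer cells of a type and less RNA per cell cannot be told apart.

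The 12 striatal projection neuron genes had negative log2FC in both ages, with medians of −1.11 in aged and −0.95 in young mice, and 0 of the 12 were called in either age. Their sum was 1595 to 2786 CPM in aged sham and 357 to 2027 CPM in aged ICH samples, which overlapped, and 1849 to 3158 CPM in young sham and 540 to 1808 CPM in young ICH samples, which did not. Of 8 interneuron genes, 2 were called lower in each age, against 6.14% of all genes in aged and 9.13% in young mice. Of 8 cortical excitatory neuron genes, 0 were called.

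The lists of other cell types differed in their counts. Of all genes tested, 6.14% were called lower and 6.83% higher in aged mice, and 9.13% and 9.77% in young mice. The lists are short, and whether a count departs from these shares was not tested. Of 10 neutrophil and monocyte genes, 7 were called higher in aged and 8 in young mice, and their sum was 40.2 to 94.9 CPM in aged sham against 148 to 168 CPM in aged ICH samples. Endothelial and pericyte genes were called higher for 4 of 8 in aged and 5 of 8 in young mice. In aged mice 3 of 8 oligodendrocyte genes and 2 of 5 oligodendrocyte precursor genes were called lower, and in young mice 0 of either. Astrocyte genes were mixed in aged mice, with 2 of 8 lower and 2 higher, and in young mice 3 were higher. Of 8 microglia genes 2 were lower in each age, and of 4 tested lymphocyte genes 1 was higher, in young mice. The median log2FC of the microglia genes was 0.00 in aged and 0.01 in young mice. The part of any of these lists in the receptor levels was not tested.

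Per 1000 CPM of the neuron genes, Sorcs3 gave 6.92 to 7.59 in aged sham and 6.33 to 6.44 in aged ICH samples, so the aged groups did not overlap on this scale. The young values, 8.07 to 8.53 in sham and 5.51 to 6.31 in ICH samples, come from the contrast that chose the family and nothing is read from them. For Sorl1 the aged ranges were 40.0 to 46.2 in sham and 33.5 to 38.5 in ICH samples, and for Sort1 they were 69.6 to 73.0 and 59.5 to 68.3, also apart. In young mice Sort1 overlapped on this scale, with 64.6 to 74.7 in sham and 63.1 to 71.2 in ICH samples, and Sorl1 gave 46.3 to 54.5 in sham and 35.8 to 40.9 in ICH samples. Sorcs1 overlapped on this scale, with 8.54 to 8.91 in aged sham and 8.49 to 8.95 in aged ICH samples, and Sorcs2 overlapped too, at 9.28 to 10.5 and 10.1 to 12.2. How many of all genes stay apart on this scale was not computed. Whether any receptor fell beyond the neuron genes was not tested.

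**Figure D4:**
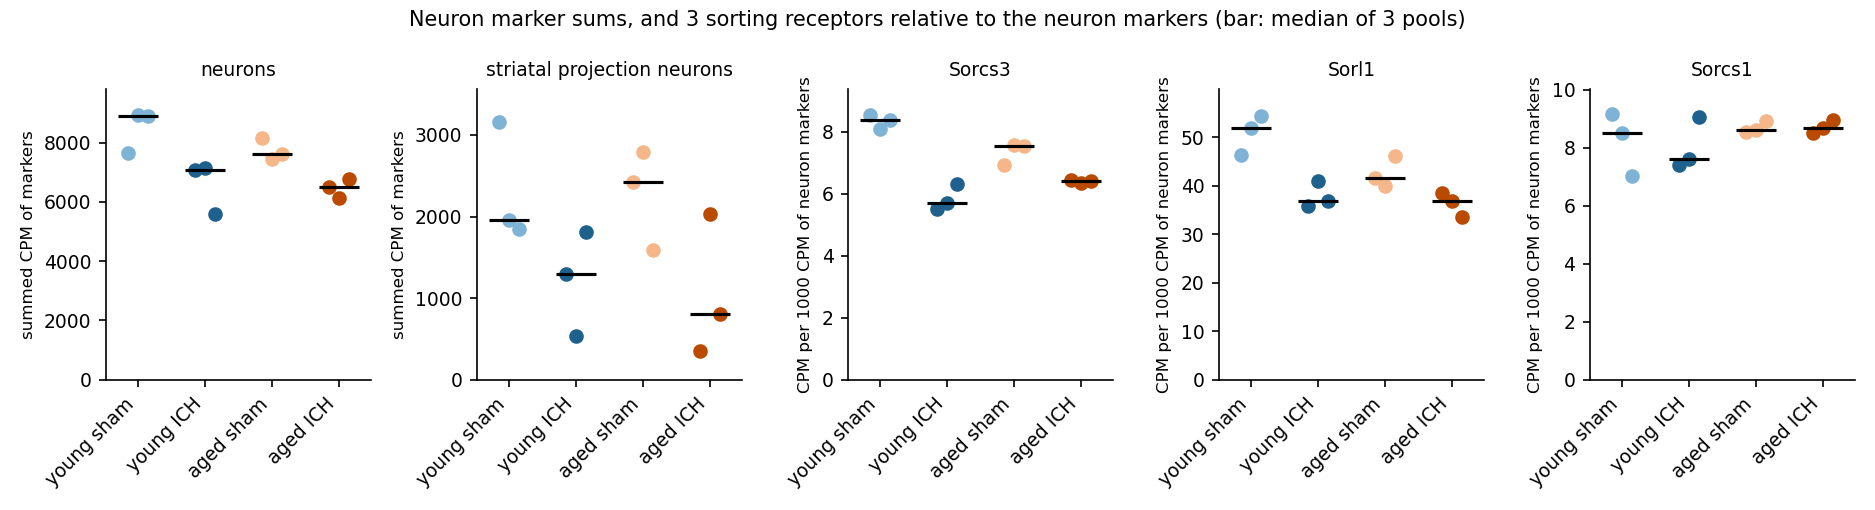
Summed CPM of the neuron genes and of the striatal projection neuron genes, and 3 members as CPM per 1000 CPM of the neuron genes, with 1 point per sample and a bar at the median. On the relative scale the aged ICH samples of Sorcs3 and Sorl1 lie below the aged sham samples, while those of Sorcs1 overlap. The share of all genes apart on this scale was not computed.

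Genes that work with the receptors were taken from 5 lists of 80 genes in all, of which 79 were tested. In aged mice 15 of the 79 (19.0%) were called lower and 4 (5.06%) higher, against 6.14% and 6.83% of all genes. The 19.0% is near the share called lower among highly expressed genes (17.9%) and among long genes (18.7%). In young mice 26 (32.9%) were called lower and 6 (7.59%) higher, against 9.13% and 9.77% of all genes. The shares among highly expressed and among long genes were not computed in young mice. The 32.9% is therefore not read as particular to the partner genes. The counts of the 5 single lists below stand against these same shares, and none is read as particular to its list. None of the called genes changed sign in the 12 fits that left out 1 sample or in the 10 other settings. The counts depend on single libraries. In aged mice the 15 became 6 without aged sham replicate 1, 9 without aged sham replicate 2, 2 without aged ICH replicate 1 and 8 without aged ICH replicate 3. In young mice the 26 became 17 without young sham replicate 1, 12 without young sham replicate 2 and 16 without young ICH replicate 3, and the 6 became 1 without young sham replicate 2 and 3 when either replicate 3 of young sham or replicate 3 of young ICH was left out. In aged mice 5 of the 19 called genes kept their call in all of these fits, among them Clcf1, Grn, Ap2b1 and Pcsk6, and in young mice 10 of 32 did.

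Of 21 ligands and cargo proteins, 3 fell and 2 rose in aged mice, with a median log2FC of −0.22. Clcf1, a cytokine of the CNTF family that sortilin and SorLA bind, rose from 5.92 to 23.7 CPM (log2FC 1.998 ± 0.35, adjusted P = 0.00805). Grn, which encodes progranulin, rose from 67.4 to 94.6 CPM (0.49 ± 0.10, adjusted P = 0.00991). App, the precursor of amyloid peptides and cargo of SorLA, fell from 1564 to 1217 CPM (−0.36 ± 0.07, adjusted P = 0.00996).

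Nlgn1, a postsynaptic adhesion protein, fell from 89.7 to 69.3 CPM (−0.37 ± 0.09, adjusted P = 0.0195), and Grin2b, an NMDA receptor subunit, fell by 0.53 on the log2 scale (adjusted P = 0.0227). In young mice 9 fell and 3 rose, with a median of −0.12. Among them were the same 5 genes, with Clcf1 at 2.49 ± 0.37 (adjusted P = 0.00258), Grn at 0.43 ± 0.10 (adjusted P = 0.0103), App at −0.38 ± 0.07 (adjusted P = 0.00472), Nlgn1 at −0.47 ± 0.09 (adjusted P = 0.00479) and Grin2b at −0.76 ± 0.13 (adjusted P = 0.00349).

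Bdnf, whose precursor binds sortilin and SorCS2, fell in young mice (−0.61 ± 0.17, adjusted P = 0.0278) and measured −0.08 ± 0.17 in aged mice (adjusted P = 0.814). Whether this gene responded differently in the 2 ages was not tested.

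Of 15 partner receptors, 2 fell and 1 rose in each age, with medians of −0.10 in aged and −0.09 in young mice. Ntrk2, the receptor of BDNF, fell from 700.2 to 540 CPM in aged mice (−0.38 ± 0.07, adjusted P = 0.00977) and by 0.32 on the log2 scale in young mice (adjusted P = 0.0117). Ntrk3, the receptor of neurotrophin-3, fell in aged (−0.38 ± 0.08, adjusted P = 0.0125) and in young mice (−0.58 ± 0.08, adjusted P = 0.00167). The gene that rose in young mice was Il6st, the signaling subunit of the IL-6 receptor family (0.33 ± 0.10, adjusted P = 0.0362).

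Of 12 retromer and sorting nexin genes, which return sorting receptors from endosomes, 3 fell and 0 rose in aged mice (median −0.12). Vps35, the core of the retromer, fell from 168 to 140.2 CPM (−0.26 ± 0.05, adjusted P = 0.00928), Snx27, a sorting nexin that works with the retromer, by 0.23 on the log2 scale (adjusted P = 0.0184) and Vps29, another retromer subunit, by 0.24 (adjusted P = 0.0281). The differences were small. The samples of the 2 groups did not overlap, with ICH below sham, which held for 17.3% of all genes. It also held for Vps26b, Snx3 and Washc5 of this list, which were not called. Snx1 and Snx2 were higher in every ICH sample than in every sham sample, and were not called either. In young mice 4 fell, Vps35 (−0.27 ± 0.05, adjusted P = 0.00451), Vps29 (−0.31 ± 0.06, adjusted P = 0.00734), Vps26b (−0.24 ± 0.07, adjusted P = 0.0347) and Snx3 (−0.21 ± 0.07, adjusted P = 0.0426). The Snx3 call held in only 1 of the 12 fits that left out 1 sample and in 3 of the 10 other settings. Snx5 rose in young mice (0.24 ± 0.06, adjusted P = 0.0204), and the median was −0.13.

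Of 18 cytosolic adaptors, which bind the receptor tails, 3 fell and 0 rose in aged mice (median −0.15). Ap2b1, a subunit of the AP-2 clathrin adaptor at the cell surface, fell from 351 to 265 CPM (−0.40 ± 0.07, adjusted P = 0.00646). Ap1g1, of the AP-1 adaptor at the Golgi, fell by 0.27 on the log2 scale (adjusted P = 0.0154), and Grip1, a synaptic scaffold, by 0.31 (adjusted P = 0.0272). In young mice 8 fell and 0 rose (median −0.23), led by Ap2b1 (−0.52 ± 0.07, adjusted P = 0.00135), Ap1g1 (−0.29 ± 0.06, adjusted P = 0.00717), Ap2m1 (−0.32 ± 0.07, adjusted P = 0.0103) and Pacs1 (−0.38 ± 0.09, adjusted P = 0.0157).

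Of 13 proteases that cleave propeptides or shed receptors, 4 fell and 1 rose in aged mice (median −0.02). Furin, which removes the propeptides of the receptors and of neurotrophins, rose from 36.0 to 47.8 CPM (0.41 ± 0.11, adjusted P = 0.0266). The proprotein convertase genes Pcsk6 (−0.72 ± 0.14, adjusted P = 0.0101), Pcsk2 (−0.45 ± 0.10, adjusted P = 0.0146) and Pcsk1 (−0.74 ± 0.20, adjusted P = 0.0389) fell, as did Aph1b, a subunit of γ-secretase (−0.28 ± 0.07, adjusted P = 0.0312).

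In young mice Furin also rose (0.39 ± 0.11, adjusted P = 0.0247). The 3 that fell were Pcsk1 (−1.06 ± 0.20, adjusted P = 0.00665), Pcsk2 (−0.48 ± 0.10, adjusted P = 0.00699) and Pcsk5 (−0.71 ± 0.22, adjusted P = 0.0404), with a median of −0.06 over the 13.

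**Figure D5:**
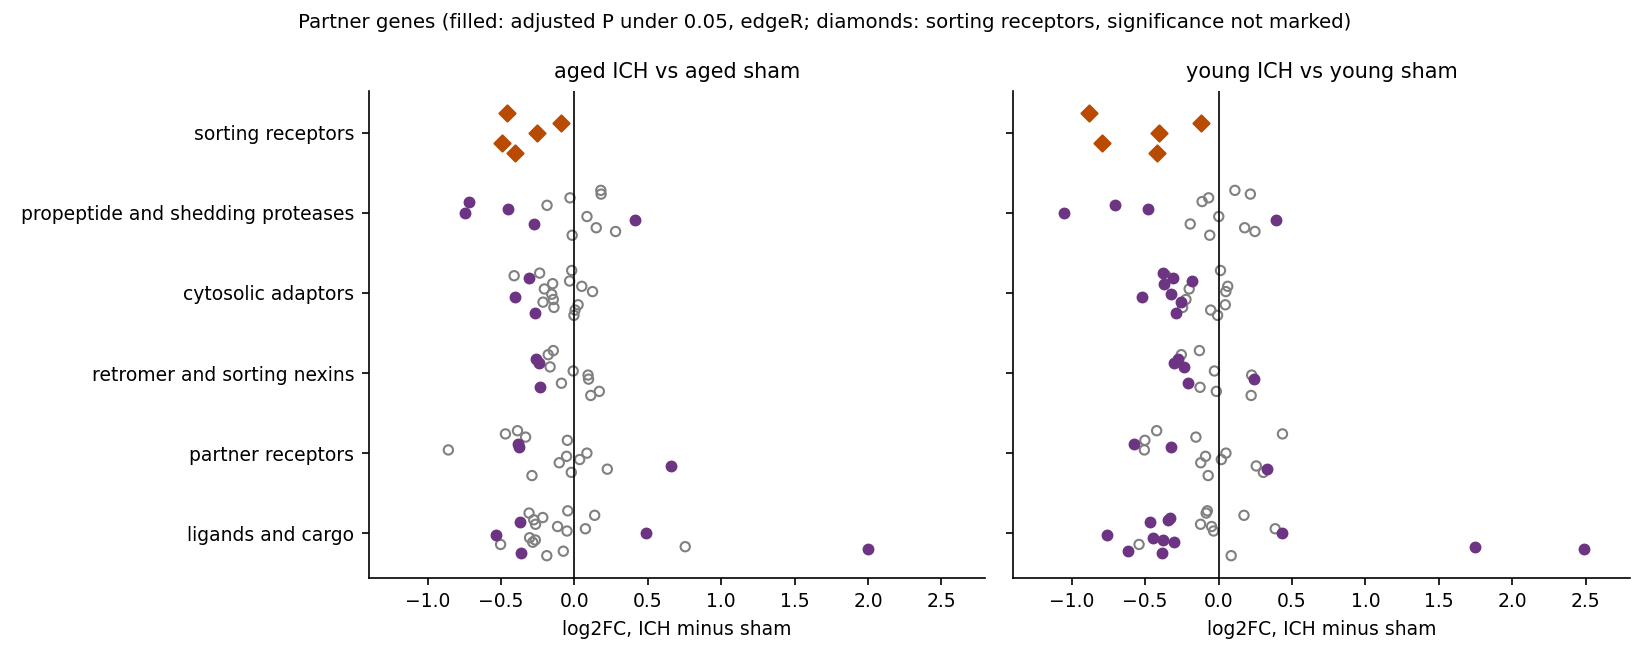
The log2FC of ICH against sham for each tested partner gene by list, in aged and in young mice, filled where the adjusted P was under 0.05, with the 5 sorting receptors as diamonds. The receptors lie at or below −0.09 in both ages, and the highest point among the partners is Clcf1.

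The members differed in how much they varied. The highest group mean CPM was 1.853 times the lowest for Sorl1, 1.841 times for Sorcs3, 1.415 times for Sort1, 1.323 times for Sorcs1 and 1.123 times for Sorcs2. As a description, the distance between the patterns of a pair of genes was taken as the mean absolute difference of log2 CPM over the 12 samples, after each gene was centred on its own mean. The nearest members were Sort1 and Sorcs1 (0.0978) and then Sorl1 and Sorcs3 (0.104), and the farthest were Sorl1 and Sorcs2 (0.341).

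Among 16822 other genes with a mean of at least 1 CPM, the 5 nearest to Sorcs3 were Cap2 (0.0691), 1190002N15Rik (0.0799), Flrt2 (0.0812), Fam78b (0.0843) and Kcnma1 (0.0876). Each was nearer to Sorcs3 than any member was. In aged mice their log2FC were −0.54, −0.50, −0.42, −0.38 and −0.45 in this order. The 3 nearest to Sorl1 were Pgm2l1 (0.0701), Pclo (0.0723) and D430041D05Rik (0.0740), with log2FC of −0.49, −0.46 and −0.54 in aged mice. These genes were chosen for their likeness over the same samples, so their differences are not tested.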

How the data were processed

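Paired reads had been aligned to GRCm38 with HISAT2, and the authors deposited, for each gene and sample, the raw count made with featureCounts and the FPKM. Strand use and the treatment of reads with several alignments are not given in the sources used here. All 12 count columns and all 12 FPKM columns matched a labelled sample. Counts were tested with edgeR 4.0.16 (quasi-likelihood, TMM, filterByExpr with a minimum count of 10, 4 groups in one fit), with Benjamini-Hochberg adjustment over 21495 genes. SE was taken from log2FC and the F statistic, as the size of the first over the root of the second. The script was tested on simulated data. CPM use TMM library sizes, except those per kb of exons, which use total counts. DESeq2 1.42.0 and limma 3.58.1, the latter on log2(FPKM + 1), were alternatives. Annotation was GENCODE vM21.

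Members, lists and tests were chosen with earlier results of these data known. Named partner genes were, per list and comparison, up to 4 with the smallest P among those called. Grin2b and Pcsk1 in aged mice, and Grn, Bdnf and Snx3 in young mice, were added after their values were seen, as were Syt1, the Bdnf value in aged mice, the fit without 3 libraries and the backgrounds of long and of highly expressed genes. Some partner genes that the rule names are not reported here.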

Additional observations from a re-analysis of the deposited data

How the results depend on the processing

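All 5 members kept a negative log2FC between aged ICH and aged sham mice in every fit. Without the 3 libraries richer in cortical markers, an alternative chosen after seeing the data that leaves 1 aged ICH sample, the 4 members, 15 lower and 4 higher partner genes called in aged mice became 0, 0 and 0, as for all genes (12 partner genes were lower and 8 higher at an unadjusted P under 0.05), and the counts in young mice were 27 lower and 6 higher. The 4 called lower became 2 without scaling beyond library size, with all genes of any count, with the replicate block and with limma on log2(FPKM + 1) or log2(FPKM + 0.1), 1 with limma on all genes of any FPKM, 0 by the study's criterion, and 1 to 4 with 1 sample left out. Same-numbered ICH and sham samples did not deviate together (correlations of −0.222 to 0.235 over 6 pairs, of which 2 correlated best with their own number), and no pairing was read from the numbers. Beside that, over the 12 fits that left out 1 sample and the 10 other settings, the adjusted P of Sorcs3 was at most 0.0259. In the same fits it reached 0.131 for Sort1, 0.129 for Sorl1 and 0.195 for Sorcs1. The fit without the 3 libraries is not among them, and Sorcs3 did not keep its call there. The 15 partner genes lower in aged mice became 6 with limma on all genes of any FPKM, 2 by the study's criterion and 2 to 19 with 1 sample left out, and the 4 higher became 2 by the study's criterion and 3 to 5 with 1 sample left out. The 26 lower in young mice became 17 without scaling, 14 with only the young groups fitted, 16, 17 and 10 with limma (FPKM + 1, FPKM + 0.1, any FPKM), 4 by the study's criterion and 12 to 26 with 1 sample left out, and the 6 higher became 11 without scaling, 3 with only the young groups, 2 by the study's criterion and 1 to 7 with 1 sample left out. The mean Sorcs3 level of 9.11 FPKM became 7.20 per kb of annotated exons. The cause of these shifts was not tested, except that the study's criterion adds a fold limit and the last value uses another length. With 3 pools a group, an exact permutation test cannot go below P = 0.1.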
